A study of Caenorhabditis elegans with 12 samples.

Results

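Short annotated intervals on the arms of 3 Caenorhabditis elegans autosomes were followed through small RNA libraries of 2 Argonaute strains. A member was any row of the count table that is named by coordinates and strand, spans under 1000 bp and starts below 4.8 Mb or above 12 Mb on chromosome II, below 3.7 Mb or above 10.3 Mb on III, or below 5.9 Mb or above 16.5 Mb on V, in build ce11. The rule used position and span and no measured value. It gave 23772 of the 55259 intervals in the table, 12782 on left arms and 10990 on right arms. Chromosome II held 2940 on its left and 3463 on its right arm, chromosome III 3953 and 4075, and chromosome V 5889 and 3452.

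The libraries came from whole worms at the L4 larval stage grown at 15 °C, in 4 groups of 3 replicates named by the letters A to C. The CSR-1 strain, with 1xFLAG::CSR-1, gave the CSR-1 input and the CSR-1 IP (immunoprecipitate). The other strain, with WAGO-1::FLAG P3G together with WAGO-3 P2G A3E, gave its input and IP, both named WAGO-1 P3G. Both IPs used an anti-FLAG antibody, so protein, tag and genotype differed together between the strains. No IP of WAGO-1 without P3G was analysed here. A kit enriched the inputs, and not the IPs, for small RNA, so the effects of kit and IP cannot be told apart in an IP over input value. Nothing in the labels says that the 3 libraries of a group came from separate cultures, so the p-values measure only the spread between these libraries.

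Argonautes are proteins that hold a small RNA and use it to find matching transcripts. In the worm germline, RNA-dependent RNA polymerases copy target transcripts into short antisense RNAs, which are loaded either on CSR-1, whose targets are mostly expressed germline genes, or on the WAGO Argonautes, which act in silencing of transposons, pseudogenes and some genes. The arms of the worm autosomes are known for more repeats, more recombination and more young gene families, such as chemoreceptors, F-box proteins and C-type lectins, than the chromosome centres.

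Most members had no read. Reads counted on genes and intervals numbered 373033 to 533232 per CSR-1 input, 334088 to 355028 per WAGO-1 P3G input, 2405005 to 4908321 per CSR-1 IP and 7403373 to 9187525 per WAGO-1 P3G IP. Of the members, 13270 had no read in any library and 10502 had at least 1. A level is given in CPM, the count scaled to 1000000 counted reads of its library, and 1 read was worth between 1.88 and 2.99 CPM in an input but between 0.109 and 0.416 CPM in an IP. The fitted log2 values also use scaling factors between libraries (TMM), which CPM does not. A log2 thus need not equal the ratio of the CPM printed beside it. Only 240 members, 126 on left and 114 on right arms, passed the low-count filter of 6.81 CPM in at least 3 libraries and were tested. Of these, 97 reached the limit in 1 group only, 56 of them in the WAGO-1 P3G IP, the deepest group. Members without a test are described by summed reads alone.

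The tested members were longer than the rest and lay in pseudogenes more often. Their median span was 291.5 bp against 138 bp for all members. A RefSeq pseudogene, a gene relic that no longer codes for a full protein, was overlapped by 34 of the 240, or 14.2%, against 3.20% of all members. Protein-coding genes were overlapped by 105 and no RefSeq gene by 96, and the other 5 lay in noncoding genes. Overlap was counted on either strand, and an interval inside a gene need not derive from it. When neighbours on the same strand within 10000 bp were joined, the 240 intervals fell into 181 loci, 149 of them of 1 interval.

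The share of counted reads on members was lowest in the CSR-1 IP on both arms, an order that depends on the denominator. On left arms it was 0.599%, 0.655% and 0.622% in CSR-1 inputs A, B and C and 0.149%, 0.201% and 0.186% in the CSR-1 IPs. In the WAGO-1 P3G strain it was 0.485%, 0.472% and 0.512% in the inputs and 0.593%, 0.603% and 0.598% in the IPs. The groups did not overlap, and the CSR-1 IP mean was 0.284 times its input while the WAGO-1 P3G IP mean was 1.22 times its input. On right arms the shares were 0.604%, 0.680% and 0.694% in CSR-1 inputs and 0.174%, 0.223% and 0.211% in the CSR-1 IPs. The WAGO-1 P3G inputs held 0.260%, 0.277% and 0.298% on right arms and the IPs 0.314%, 0.330% and 0.317%. Here too no 2 compared groups overlapped, with IP over input at 0.306 for CSR-1 and 1.15 for WAGO-1 P3G. Each of these comparisons gave p = 0.1 by a 2-sided exact permutation test, the smallest that 3 libraries against 3 can give, and 0.14 after Benjamini-Hochberg adjustment over the 60 share comparisons, so none passed 0.05. Of all reads of a library, those on no feature included, left-arm members held on average 0.268% before and 0.134% after the CSR-1 IP, and 0.131% before and 0.406% after the WAGO-1 P3G IP. On right arms these means were 0.282%, 0.152%, 0.0742% and 0.218%. On that scale the WAGO-1 P3G input had the lowest mean on both arms. On left arms its libraries, at 0.1277% to 0.1325%, lay within the range of the CSR-1 IPs, 0.1194% to 0.1457%. The log2 IP over input on left and right arms was -1.0 and -0.89 for CSR-1, against -1.82 and -1.71 over counted reads. For WAGO-1 P3G it was 1.64 and 1.55, against 0.29 and 0.21. Over counted reads, the share on left-arm members too sparse to be tested was 1.089 times its input in the WAGO-1 P3G IP. On right arms it was 0.9902 times its input, and the groups overlapped on both arms. For CSR-1 these ratios were 0.3607 and 0.3253, without overlap. A WAGO-1 P3G rise over counted reads was thus not separate from the spread of the libraries among the untested members.

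The ratio of right-arm to left-arm reads did not overlap between the inputs of the strains (exact permutation p = 0.1, the smallest possible). Reads on right-arm members were 1.05 times those on left-arm members in CSR-1 inputs and 0.568 times in WAGO-1 P3G inputs. The IPs had 1.14 and 0.536. Set against the CSR-1 inputs, the WAGO-1 P3G inputs held 0.422 times the share of reads on right-arm members and 0.784 times that on left-arm members. A single pseudogene, Y37H2A.16 on the right arm of V, held 27.5% of all right-arm reads in CSR-1 inputs and 10.7% in WAGO-1 P3G inputs. Without its 9 intervals the right-arm input ratio was 0.520. Among members too sparse to be tested it was 0.793. In whole worms, fewer cells making these small RNAs and less small RNA per cell cannot be told apart.

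**Figure D1:**
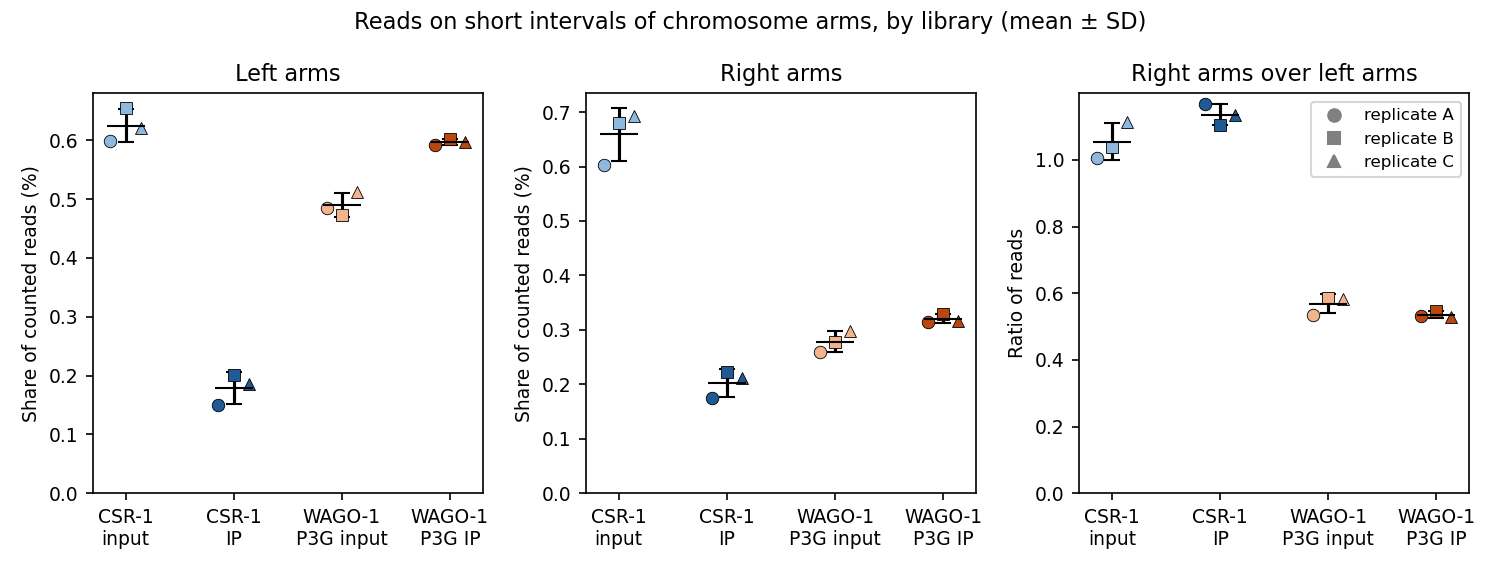
Percent of a library's counted reads that fell on short intervals of left and right autosome arms, 1 point per library, with the mean and SD of each group (n = 3); the last panel gives the ratio of right-arm to left-arm reads. The CSR-1 IP points lie at or below 0.223% on both arms, and the WAGO-1 P3G input points lie near 0.490% on left and 0.278% on right arms.

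Arm intervals were set against short intervals of the centres of the same chromosomes, 5583 rows, within each library. The ratio of arm to centre reads was 1.45 ± 0.0542 before and 1.58 ± 0.0544 after the CSR-1 IP, and 1.10 ± 0.0854 before and 0.843 ± 0.00843 after the WAGO-1 P3G IP (SD, n = 3 each). The log2 of IP over input of this ratio, 0.12 for CSR-1 and -0.38 for WAGO-1 P3G, rests on few intervals. Without the 5 intervals with the most reads on left arms, on right arms and in centres it was -0.21 and 0.0036. Without the centre interval with the most reads, the mean centre share fell from 0.8857% to 0.5334% in CSR-1 inputs. In WAGO-1 P3G IPs it fell from 1.089% to 0.4355%. The arm share in those IPs fell from 0.9179% to 0.8598% without the top arm member. The tested intervals of the centres, 120 of them, had medians of -1.81 for CSR-1 IP over input and 1.00 for WAGO-1 P3G IP over input, close to those of the arm members given next, and no test of that difference was made.

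CSR-1 IP over its input asks which short intervals give small RNAs that travel with CSR-1. More members were lower than higher on both arms. On left arms 7 of 126 tested members were higher and 81 lower in the CSR-1 IP, and on right arms 8 of 114 were higher and 79 lower. Over all 10822 tested features of the table, genes included, 37.5% were called higher and 33.6% lower. The median log2 of the members was -1.85 on left and -1.89 on right arms, against -0.08 over all features. Calls are those of edgeR's quasi-likelihood test at a Benjamini-Hochberg adjusted p under 0.05, adjusted over all features. The lower calls came from 58 loci on left and 60 on right arms. Among members that reached the count limit in both groups, and so could not have entered the test through 1 of them, 25 of 30 on left and 22 of 26 on right arms were lower. With library totals alone the all-feature median was -0.50 and the left-arm members stayed 1.78 below it.

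The member with the most reads on left arms showed the common pattern. It is II:2157035-2157789 on the minus strand, in no RefSeq gene. It stood at 415, 473 and 413 CPM in CSR-1 inputs and at 70.5, 105 and 106 CPM in the CSR-1 IPs, without overlap. The edgeR log2 was -1.82 ± 0.13 (SE), adjusted p = 4.76e-12. Its neighbour II:2156289-2157020 fell alike, from 217, 253 and 252 CPM to 28.3, 57.4 and 54.2 CPM. The deepest fall among members of at least 20 CPM on left arms was that of the 81-bp interval III:2295114-2295194, plus strand and in no gene, at 51.9, 129 and 104 CPM in the inputs and 9.17, 9.56 and 9.04 CPM in the CSR-1 IPs (log2 -2.97 ± 0.25, adjusted p = 1.31e-10). Next came III:2413460-2413965 in W04B5.5 (log2 -2.80) and III:2803796-2804357 in no gene (log2 -2.73).

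On right arms the pseudogene Y75B8A.41 held the deepest fall among members of at least 20 CPM, at III:12316102-12316414 on the minus strand. Its CPM was 74.1, 67.5 and 88.5 in the CSR-1 inputs and 8.56, 9.56 and 6.12 in the CSR-1 IPs, and the groups did not overlap (log2 -2.81 ± 0.24, adjusted p = 1.5e-10). V:20472491-20472770, over the pseudogenes B0250.11 and B0250.14, followed at log2 -2.67, and III:13229612-13230128 in no gene at -2.57. ZC15.3, at V:20304437-20304588, moved least of the 3 right-arm members with the most reads, from 208, 176 and 196 CPM to 63.8, 103 and 96.2 CPM (log2 -0.74). That call was lost at adjusted p = 0.0506 by edgeR when all reads of a library, those on no feature included, set the scale. It was also lost with no filter on low counts (log2 -0.29, adjusted p = 0.454).

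The 15 members higher in the CSR-1 IP all lay within a RefSeq gene, 14 in protein-coding genes and 1 in a pseudogene. Of the 15, only 1 on left and 2 on right arms reached the count limit in both CSR-1 groups. Among all tested members, 12 reached it in the CSR-1 IP alone and so entered the test through that group, which favours higher calls there. Of the 96 tested members outside genes, 0 were higher by edgeR, with 1 at an unadjusted p under 0.05, and 0 by DESeq2 or limma voom. The highest level was in aakb-2, which codes for a beta subunit of AMP-activated protein kinase, an energy sensor. Its 91-bp interval III:11238924-11239014 stood at 54.3, 35.6 and 45.6 CPM in the inputs and 199, 180 and 190 CPM in the CSR-1 IPs. Every IP was above every input (log2 2.52 ± 0.17, adjusted p = 2.37e-12). W03F9.1, at V:124224-124316, had 14.8, 20.6 and 10.7 CPM in inputs and 28.1, 30.4 and 25.1 CPM in the IPs (log2 1.22 ± 0.29, adjusted p = 0.000633). It was the only left-arm member of at least 20 CPM that was higher, and the call was lost when every library was thinned to the smallest depth (log2 0.67).

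The other 13 were sparse in the inputs, and their values were seen before they were named. On right arms they lay in Y43F8C.6, in M03C11.3 and hat-1 (a histone acetyltransferase), in sam-10, tric-1B.2, mac-1 (an AAA ATPase), Y49E10.21 and faah-4 (a fatty acid amide hydrolase). On left arms they lay in madf-3, H20J04.4, sos-1 (an exchange factor that activates Ras), mrps-31 (a mitochondrial ribosomal protein), W04B5.5 and the pseudogene Y53G8B.3. The 64-bp interval of faah-4, III:11899462-11899525, had 0, 1.88 and 0 CPM in the inputs and 33.4, 37.8 and 38.8 CPM in the IPs, a ratio of 47.4 with a 95% counting interval of 8.45 to 1875. Y49E10.21 had a ratio of 24.8 (8.44 to 120.5) and mac-1 25.6 (4.55 to 1017). The 62-bp interval of W04B5.5, III:2411151-2411212 on the minus strand, had no read in any CSR-1 input and 19.1, 20.8 and 20.1 CPM in the IPs. It was at least 8.67-fold higher in the IP, with 3 counts over the input group as the floor. The plus-strand interval of the same gene was among the deepest falls above, so within W04B5.5 the intervals on opposite strands differed in direction.

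**Figure D2:**
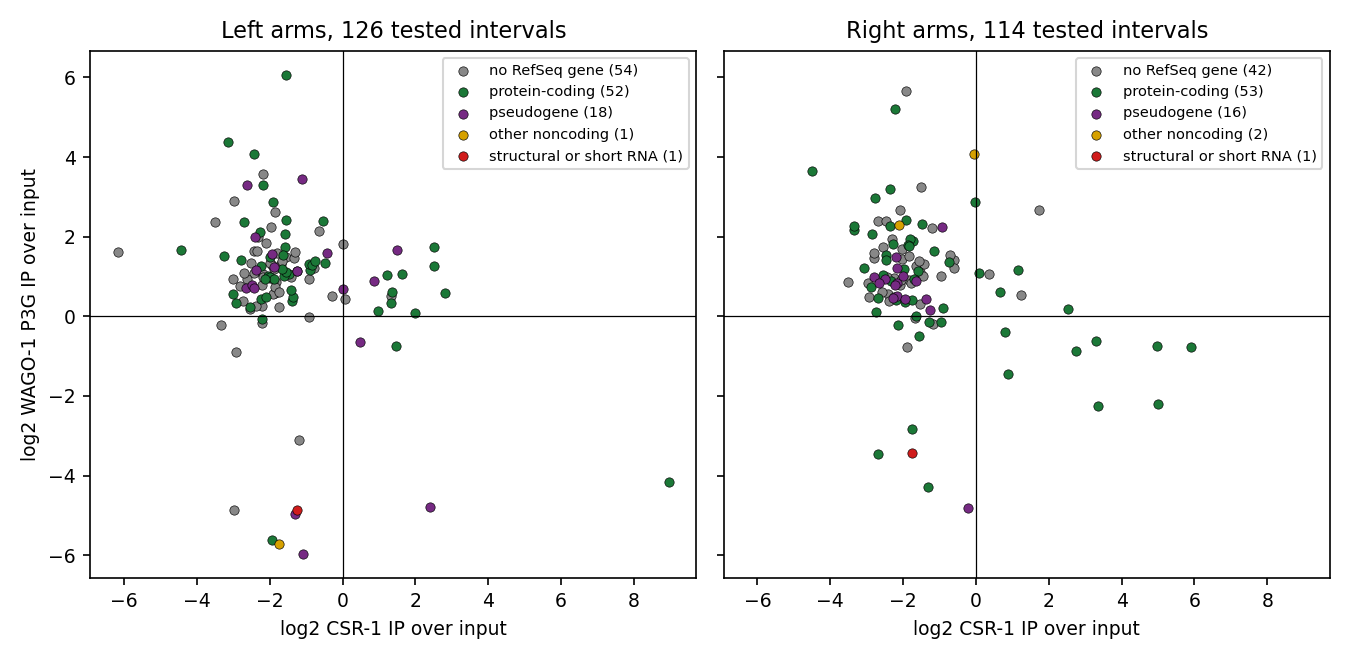
Fitted log2 of IP over input for each of the 240 tested members, CSR-1 on the x axis and WAGO-1 P3G on the y axis, left and right arms in separate panels, coloured by the class of overlapping gene. Most points lie left of 0 and above 0; the farthest points rest on groups with few or no reads, where the fitted value depends on the prior count.

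WAGO-1 P3G IP over its input showed the opposite balance. On left arms 68 tested members were higher and 9 lower, and on right arms 53 were higher and 5 lower, beside 34.2% called higher and 33.4% called lower over all features. The members' medians were 1.06 on left and 0.99 on right arms, against 0.12 over all features. The higher calls came from 51 and 49 loci. The IP and input libraries did not overlap in 53 of the 68 higher calls on left and 39 of the 53 on right arms. For the lower calls this held in 8 of 9 and 2 of 5. How common it was over all features was not counted. Where both groups reached the count limit, 30 of 42 members on left and 19 of 32 on right arms were higher. The counts moved with the scale: with library totals alone, which put the all-feature median at -0.48, the calls were 32 higher and 11 lower on left and 23 higher and 9 lower on right arms. CPM is on that scale too, so the CPM given below show smaller WAGO-1 P3G rises than the fitted log2. For 1 of the 68 left-arm members called higher the CPM ratio went the other way. The 5 lower calls on right arms became 3 without WAGO-1 P3G input C.

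The rise with the largest log2 on left arms among members of at least 20 CPM lay in str-68, a chemosensory G protein-coupled receptor gene, at V:3106927-3107051 on the minus strand. Its inputs stood at 17.6, 12 and 11.3 CPM and its IPs at 63.0, 56.6 and 78.9 CPM. The groups did not overlap (log2 2.88 ± 0.30, adjusted p = 9.61e-09). V:2595197-2595374, in no gene, followed at log2 2.14. The minus-strand interval V:3924996-3925842 in the pseudogene srx-69, also of a chemoreceptor family, rose from 26.5, 23.9 and 33.8 CPM to 72, 74.8 and 77.6 CPM (log2 2.00 ± 0.23, adjusted p = 3.34e-08). II:2529694-2530077, in no gene, had the second most reads of the left-arm members. It went from 221, 174 and 237 CPM to 421, 446 and 406 CPM, every IP above every input (log2 1.61 ± 0.15, adjusted p = 1.77e-09).

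On right arms the first 3 by log2 among members of at least 20 CPM were II:13260794-13261023 in the noncoding gene Y48C3A.1, V:19972812-19972947 in no gene and V:20258746-20259688 in mdt-17, a subunit of the Mediator complex that links transcription factors to RNA polymerase. Y48C3A.1 was at 5.88, 2.99 and 2.82 CPM in the inputs, 1 or 2 reads each, and at 16.6, 10.1 and 11.7 CPM in the IPs (log2 2.3 ± 0.64, adjusted p = 0.00309). That call was lost with library totals alone (adjusted p = 0.0607). The mdt-17 interval had 20.6, 26.9 and 22.5 CPM in the inputs and 54.0, 50.5 and 53.7 CPM in the IPs, with no overlap (log2 1.77 ± 0.28, adjusted p = 5.42e-06). An interval of dkf-2, a protein kinase D gene, at V:16767346-16767656, rose by log2 1.15 ± 0.22 (adjusted p = 8.35e-05), with inputs at 85.3, 74.8 and 64.8 CPM and IPs at 93.0, 141 and 95.7 CPM, all above the inputs.

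The 9 left-arm members lower in the WAGO-1 P3G IP had log2 values between -5.97 and -3.12. C49G7.14, a pseudogene, at V:4051532-4052132 on the plus strand, had 118, 86.8 and 113 CPM in the WAGO-1 P3G inputs and 1.08, 1.08 and 1.09 CPM in the IPs. The log2 was -5.97 ± 0.29 (adjusted p = 1.3e-14). The noncoding gene H09G03.5, at III:3231228-3231413, went from 106, 92.8 and 59.1 CPM to 1.32, 0.810 and 0.980 CPM (log2 -5.72 ± 0.32, adjusted p = 2.08e-13). III:2295114-2295194, in no gene, went from 250, 251 and 290 CPM to 5.88, 5.81 and 6.20 CPM (log2 -4.86 ± 0.21, adjusted p = 1.58e-15). In each of the 3 the IPs lay far below every input, and all 3 were lower in the CSR-1 IP too. Of the 14 members lower in the WAGO-1 P3G IP on both arms, 9 were also lower in the CSR-1 IP, 3 were higher there and 2 were not called. Among those 3, the lower calls of W04B5.5 and Y53G8B.3 rest on very few reads. III:2411151-2411212 in W04B5.5 had 0 reads after the WAGO-1 P3G IP against 1 before it. III:3109804-3109839 in Y53G8B.3 had 2 reads after it against 5 before. How often calls were opposed in this way over all features was not counted.

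The difference of the enrichments asks whether IP over input differed between the strains. It was higher with WAGO-1 P3G for 91 members and lower for 11 on left arms, and higher for 82 and lower for 10 on right arms, beside 33.9% higher and 40.0% lower over all features. The median difference of the log2 values was 2.83 on left and 2.89 on right arms, against -0.34 over all features. Over all tested intervals of the table it was 2.90, and over those of the centres 2.75, so this was not particular to the arms. Where all 4 groups reached the count limit, 21 of 23 members on left and 18 of 19 on right arms were higher. Members lower in the CSR-1 IP and also higher in the WAGO-1 P3G IP numbered 47 on left and 40 on right arms. That joint count was made for arm members only, so how common it was over all features is not known.

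The largest differences on left arms among members of at least 20 CPM were those of str-68 (4.78 ± 0.87, adjusted p = 3.08e-05 by edgeR), the minus-strand interval of srx-69 (4.4 ± 0.31, adjusted p = 3.89e-12) and V:3935082-3935619 in no gene (4.32 ± 0.26, adjusted p = 1.36e-13). In str-68 the CSR-1 side rests on 1 to 4 reads per input: 4.94, 7.50 and 2.68 CPM, against 0.611, 1.66 and 1.17 CPM in the CSR-1 IPs. Its difference was lost after thinning to the smallest library (log2 2.74, adjusted p = 0.296). V:3935082-3935619 had more reads, with 200, 242 and 247 CPM in the inputs and 25.3, 42.0 and 38.5 CPM in the IPs of the CSR-1 strain. The WAGO-1 P3G strain had 58.8, 44.9 and 36.6 CPM in its inputs and 116, 120 and 132 CPM in its IPs. It was thus low in every CSR-1 IP and high in every WAGO-1 P3G IP relative to its own inputs. On right arms Y48C3A.1 (4.41), Y75B8A.41 (3.79) and V:19270045-19270581 in no gene (3.71) led among members of at least 20 CPM. The aakb-2 interval was the only one of that level with a lower difference there (-2.34 ± 0.31, adjusted p = 2.81e-07). The other 9 right-arm members lower in the difference had means under 20 CPM, and their fitted values, from -2.32 in Y43F8C.6 to -7.22 in Y49E10.21, rest on fewer reads.

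**Figure D3:**
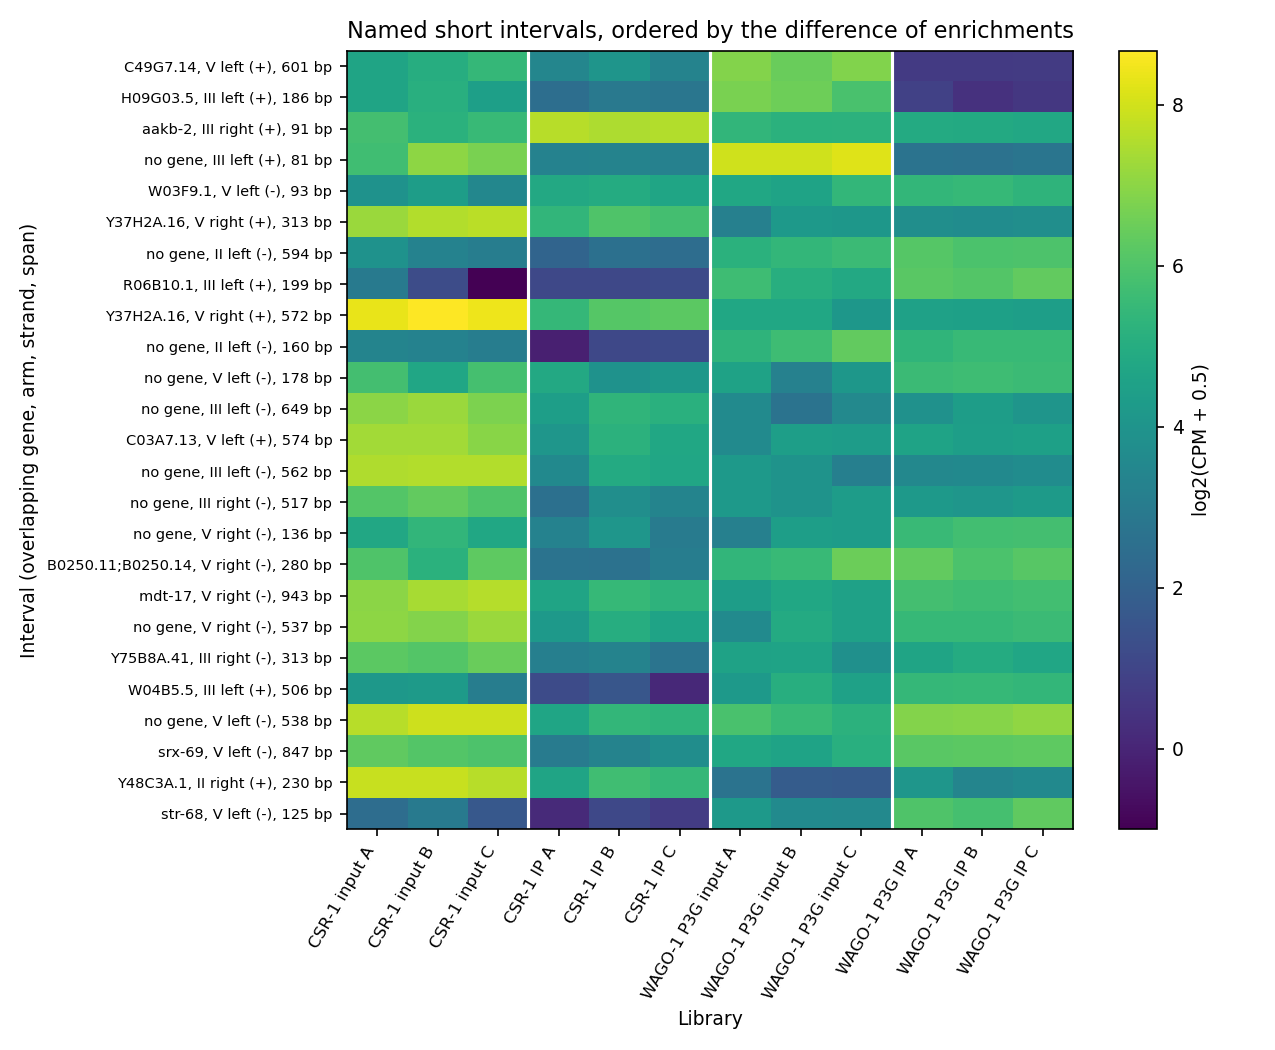
Heat map of levels for members named by rule, 1 row per interval, ordered by the difference of enrichments, and 1 column per library, coloured by log2 of CPM + 0.5 from dark (low) to yellow (high). The rows of C49G7.14, H09G03.5 and III:2295114-2295194 are dark in the WAGO-1 P3G IPs and bright in their inputs, and the aakb-2 row is brightest in the CSR-1 IPs.

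WAGO-1 P3G input over CSR-1 input compares the 2 strains before any IP. On left arms 19 members were higher and 38 lower in the WAGO-1 P3G inputs, and on right arms 3 were higher and 50 lower, beside 19.6% higher and 18.8% lower over all features. The medians were -0.26 on left and -1.25 on right arms, against 0.03 over all features. Over all 1286 tested intervals of the table the median was -0.82, with 107 higher and 541 lower. Over the 120 of the centres it was -0.42, with 13 higher and 37 lower. A lower input level was thus not particular to the arms. The lower calls came from 27 loci on left and 35 on right arms. Where both inputs reached the count limit, 11 of 42 members were higher and 16 lower on left arms, and 17 of 28 were lower on right arms. With all reads as library size the left-arm split was 12 higher and 47 lower. The 3 higher calls on right arms became 1 without CSR-1 input C. They were sre-45 at II:13522307-13522445, V:16684439-16684650 and an interval of III over Y111B2A.25 and Y111B2A.27.

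The arms of the chromosomes did not share 1 pattern. On the left arm of II 11 members were higher and 7 lower, with a median log2 of 0.06 over 44 tested, and on the left arm of III 6 were higher and 7 lower, with a median of 0.36 over 32. On the left arm of V 2 were higher and 24 lower (median -0.84 over 50). On right arms 1 was higher and 13 lower on II (median -0.81 over 34), 1 and 8 on III (-0.26 over 27) and 1 and 29 on V (-1.89 over 53). Without Y37H2A.16, 21 of the 44 tested members left on the right arm of V were lower, and their median was -1.70.

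**Figure D4:**
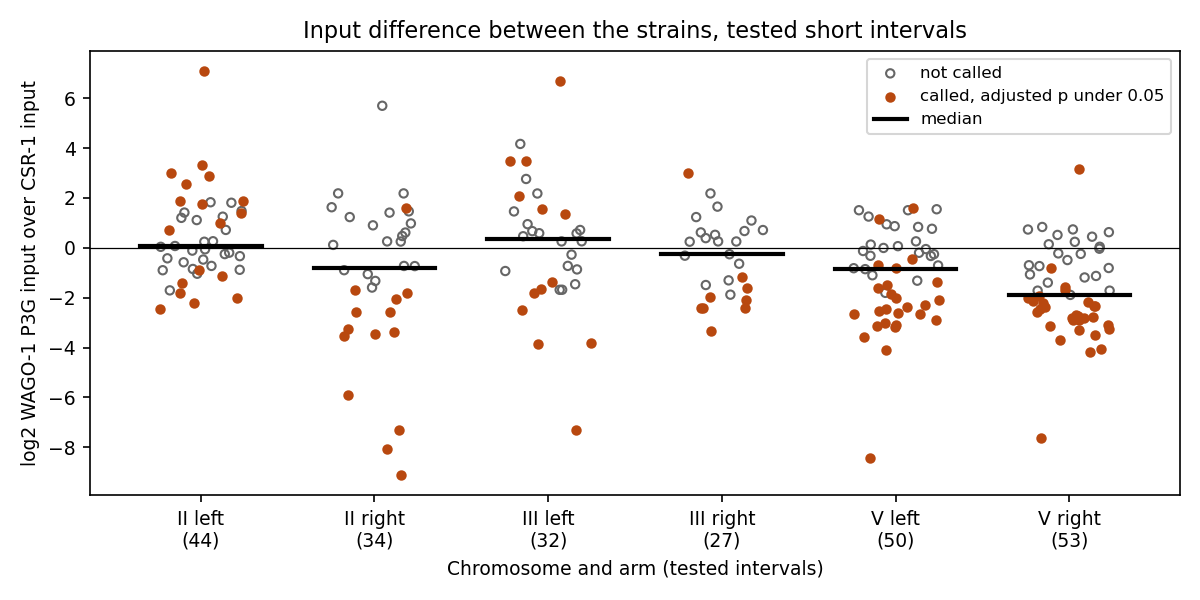
Fitted log2 of WAGO-1 P3G input over CSR-1 input for tested members, grouped by chromosome and arm, 1 point per interval, filled where called at an adjusted p under 0.05, with a line at the median. The medians run from 0.36 on the left arm of III to -1.89 on the right arm of V.

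The largest gain in the WAGO-1 P3G inputs among members of at least 20 CPM was in the pseudogene R06B10.1, at III:971060-971258. It had 7.41, 1.88 and 0 CPM in the CSR-1 inputs and 50.0, 32.9 and 28.2 CPM in the WAGO-1 P3G inputs, with no overlap (log2 3.49 ± 0.56, adjusted p = 1.75e-05). II:2151236-2151395 (log2 2.55) and II:666438-667031 (1.87), both in no gene, followed. The largest loss at that level was that of Y48C3A.1, with 232, 231 and 198 CPM in the CSR-1 inputs against 5.88, 2.99 and 2.82 CPM in the WAGO-1 P3G inputs (log2 -5.90 ± 0.45, adjusted p = 8.21e-11). III:2803796-2804357 had 183, 188 and 188 CPM in CSR-1 inputs and 17.6, 15.0 and 8.45 CPM in WAGO-1 P3G inputs (log2 -3.85 ± 0.36, adjusted p = 2.6e-09). III:946937-947585 (log2 -3.81), in no gene, and C03A7.13 at V:5190665-5191238 (-3.18) were also lower.

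The pseudogene Y37H2A.16 was the right-arm locus with the highest summed level. Its 9 tested intervals ran from V:18118495 to V:18123318 on the plus strand. Together they had 1573, 1905 and 1965 CPM in the inputs of the CSR-1 strain and 297, 491.5 and 432.4 CPM in its IPs. In the WAGO-1 P3G strain they had 250, 326.3 and 315.5 CPM in the inputs and 301, 323.2 and 303.3 CPM in the IPs. All 9 were lower in the CSR-1 IP, with log2 between -2.50 and -1.25, and 1 was higher in the WAGO-1 P3G IP. In the inputs 8 of the 9 were lower in the WAGO-1 P3G strain. V:18119905-18120626, the right-arm member with the most reads, fell from 766, 1001 and 1078 CPM in CSR-1 inputs to 118, 141 and 152 CPM in WAGO-1 P3G inputs (log2 -2.88 ± 0.18, adjusted p = 1.19e-12). V:18120789-18121360 fell by 4.04 and V:18118928-18119240 by 3.70 on the log2 scale.

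The first interval of the pseudogene did not follow its neighbours. V:18118495-18118927 had 32.1, 48.8 and 37.5 CPM in CSR-1 inputs and 38.2, 65.8 and 47.9 CPM in WAGO-1 P3G inputs, overlapping and not called (log2 0.24 ± 0.29, adjusted p = 0.541), while the interval that starts at the next base fell. An interval of the same 433-bp span near the other end, V:18122692-18123124, fell less than the ones between (log2 -0.80 ± 0.27, adjusted p = 0.0197), and another tested interval of that span lies in Y39B6A.43 at V:18962245-18962677. No genome was used here, so whether these are copies, and where their reads arose, was not tested.

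**Figure D5:**
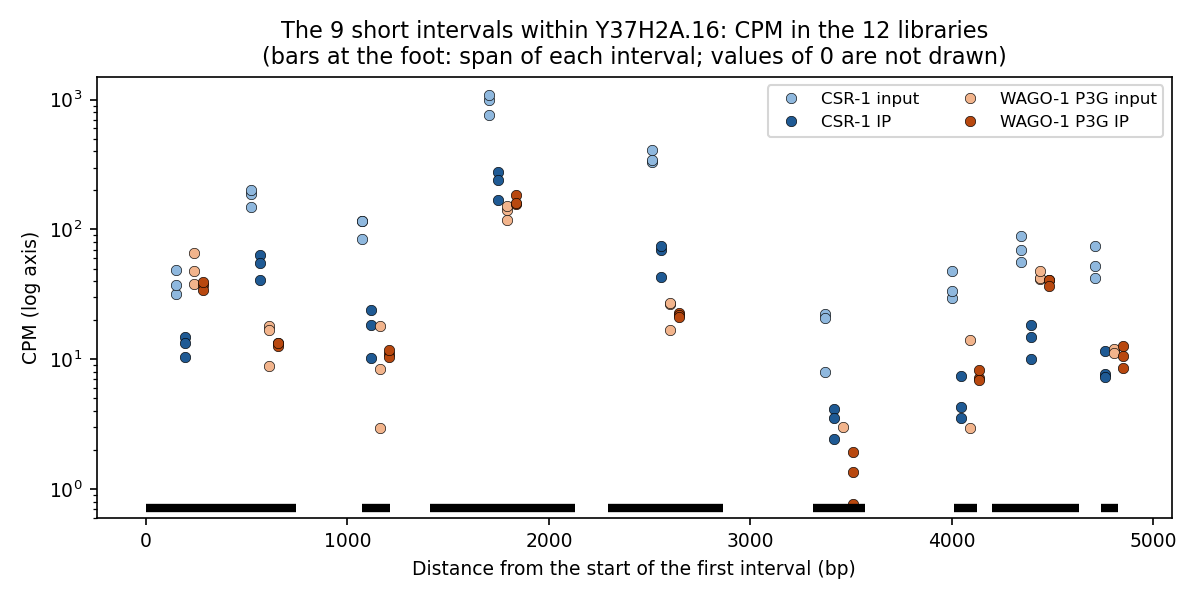
CPM of the 9 tested intervals of Y37H2A.16 by their distance in bp from the first base of the first one, on a log axis, 1 point per library coloured by group, with bars at the foot for the span of each interval; values of 0 are not drawn. The first interval lies between 32.1 and 65.8 CPM in all inputs, and the other 8 lie higher in the CSR-1 inputs than in the WAGO-1 P3G inputs.

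On the left arm of II, 11 members on the minus strand between 2147635 and 2164772, only 1 of them in a gene (C40A11.2), formed the left-arm locus with the most reads. It had 884.3, 999.6 and 868.6 CPM in the CSR-1 inputs and 891.3, 1075 and 999.9 CPM in the WAGO-1 P3G inputs. The CSR-1 IPs were at 131.4, 213.7 and 207.6 CPM and the WAGO-1 P3G IPs at 1225, 1222 and 1315 CPM, so that the IPs differed while the inputs overlapped. Within it 10 members were lower in the CSR-1 IP, 7 were higher in the WAGO-1 P3G IP, and in the inputs 3 were higher and 3 lower. The locus II:2529510-2530724, 4 members in no gene, rose in the WAGO-1 P3G strain at both steps. Its summed CPM was 103.7, 153.8 and 147.4 in CSR-1 inputs and 391.2, 293.3 and 394.3 in those of WAGO-1 P3G, whose IPs stood at 722.4, 766.9 and 697.7. All 4 were higher in the WAGO-1 P3G IP and 3 in the WAGO-1 P3G input. On the right arm of II the 4 intervals of ife-5, a homologue of the cap-binding factor eIF4E, were all lower in the CSR-1 IP. Their summed CPM was 247, 251.3 and 252 in the inputs of the CSR-1 strain and 25.7, 48.2 and 46.7 in its IPs, and 53.0, 50.9 and 56.3 in the inputs of the WAGO-1 P3G strain and 49.8, 44.0 and 55.5 in its IPs.

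The gene families known from the arms gave few tested members. Chemoreceptor genes were overlapped by 1052 members, of which 9 were tested. Of these 9, 6 were lower in the CSR-1 IP, 7 were higher and 1 lower in the WAGO-1 P3G IP, and 7 had a higher difference of enrichments, with medians of log2 -1.90, 2.00 and 3.96. Over all tested arm members the counts were 160, 121 and 173 of 240, and over all features 33.6%, 34.2% and 33.9%. Of the 240, 56 reached the count limit in the WAGO-1 P3G IP alone, which favours higher calls there. The srt-31 interval was such a member, with 348 reads in those IPs, 1 in their inputs, 2 in CSR-1 inputs and 1 in CSR-1 IPs. How many of the 9 entered the test this way was not counted. Besides str-68, srt-31 at V:473821-474038 had 0, 0 and 2.82 CPM in the WAGO-1 P3G inputs and 13.8, 14.7 and 13.5 CPM in the IPs, a ratio of 14.4 (95% counting interval 2.56 to 569). The plus-strand interval of srx-69, V:3924303-3924663, had 17.3, 18.8 and 13.4 CPM in CSR-1 inputs and 0, 0 and 2.82 CPM in WAGO-1 P3G inputs, lower by a ratio of 17.3 (2.79 to 713). F-box genes had 2 tested of 268 members, C-type lectins 0 of 141 and nuclear hormone receptors 1 of 184.

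Of 3 tested members in MATH and BATH genes, which code for adaptors of protein degradation, 3 had a higher difference of enrichments. The math-1 interval II:2046525-2047034 stood at 91.4, 86.3 and 77.7 CPM in the inputs of the CSR-1 strain and 11.0, 20.4 and 10.8 CPM in its IPs, and at 20.6, 8.98 and 19.7 CPM in the inputs of the WAGO-1 P3G strain and 14.9, 13.9 and 15.1 CPM in its IPs. It was thus low everywhere except in the CSR-1 inputs. The interval of nhr-15, a nuclear hormone receptor, was lower in the CSR-1 IP (log2 -2.11) and in the WAGO-1 P3G input (-2.46), as was that of cyp-33C2, a cytochrome P450 (-2.20 and -2.91). Genes of the small RNA pathways themselves had 50 members and 1 tested, in sid-1, the channel for import of double-stranded RNA. That interval, V:5124065-5124360, was higher in the WAGO-1 P3G IP, at 22.8, 24.7 and 25.8 CPM against 11.8, 18 and 5.63 CPM (log2 1.66 ± 0.38, adjusted p = 0.000496). Structural and short RNA genes had 2 tested of 24 members, both lower in both IPs. Their CSR-1 calls were weak: that of II:13951466-13951523, in W07G1.8 and sre-44, was lost in 5 alternatives, 3 of them with 1 library left out (CSR-1 input B, CSR-1 input C or CSR-1 IP A, adjusted p = 0.0686, 0.098 and 0.052). That of V:4310672-4311010, over ZC132.t1, was lost in 4, among them without CSR-1 input B or C (adjusted p = 0.0849 and 0.0569).

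The calls were also counted by span and strand. Of the 29 tested members of 35 to 99 bp, 7 were higher and 16 lower in the CSR-1 IP, and 8 were higher and 6 lower in the WAGO-1 P3G IP. Of the 97 of at least 100 but under 300 bp the counts were 3 and 55, and 55 and 2. Of the 114 of 300 bp and more they were 5 and 89, and 58 and 6. The plus strand held 142 tested members, of which 4 were higher and 97 lower in the CSR-1 IP. The minus strand held 98, of which 11 were higher and 63 lower. The CSR-1 medians of the strands were alike, at -1.859 and -1.864. In the WAGO-1 P3G IP 70 were higher and 6 lower on the plus strand, and 51 and 8 on the minus strand. Over all features 37.5% were higher and 33.6% lower for CSR-1, and 34.2% and 33.4% for WAGO-1 P3G.

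Values of the tested intervals nearest the limits of the rule, inside and outside, were set side by side, with no test. Few intervals were tested, so these need not lie close to a limit. The longest tested member, III:13522043-13523033 at 991 bp, had log2 -1.29 for CSR-1 and -0.14 for WAGO-1 P3G IP over input, and the shortest tested interval beyond the span limit, III:2342072-2343099 at 1028 bp, had -3.17 and -5.35. For CSR-1 the signs differed across 4 of the 6 arm edges, though not every value was called. The last tested member on the left arm of II, II:4495248-4495505, had 1.63 for CSR-1 and 1.06 for WAGO-1 P3G. Its CSR-1 value was not called and rests on 2 reads in the inputs and 39 in the IPs. The interval II:5073354-5073630 outside had -1.17 and 0.80. On the left arm of III the values were 1.99 and 0.08 inside, at III:3627426-3627510, and -0.91 and 2.26 outside, at III:4042835-4043052. On the right arm of III they were 2.75 and -0.88 inside, at III:10405418-10405713, and -1.27 and 1.68 outside, at III:10054741-10054936. At the inner edge of the left arm of V the last tested member, V:5777551-5778449, had 0.47 and -0.66, neither of them called. The first tested interval of the centre, V:6417848-6418786, had -1.87 and 2.29. On the right arm of II the values were 3.34 and -2.25 for the first tested member, in tric-1B.2. They were 1.29 and -2.46 for II:11877467-11877540, the nearest tested interval outside. At the right arm of V they were -2.46 and 1.42 inside, at V:16537535-16537700, and -1.78 and 0.74 outside, at V:16106390-16107385.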

How the data were processed

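Raw counts per gene identifier and per interval were used as deposited, with no normalization by the authors. HTSeq 0.11.2, cutadapt 2.3, Bowtie 1.2.3, SAMtools 1.9 and build ce11 are named in the submitters' processing notes, with no role or order. The source of the intervals, the strand setting and the treatment of reads with several alignments are not stated in the labels or the file. The entry for reads without a unique alignment is 0 in every library, so intervals with near-identical copies are uncertain. Per the labels, each library was read for 50 cycles, and inputs began from 500 ng of total RNA. Groups follow the title, sample name and antibody field, which matched each other. The opening text of some descriptions contradicts them.

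Counts of all 12 libraries were fitted with edgeR 4.0.16 (R 4.3.3): filterByExpr, TMM factors, 1 mean per group, no replicate block, quasi-likelihood F tests with 8 residual degrees of freedom, and Benjamini-Hochberg adjustment over the 10822 features tested. The 5 summary entries stayed out. Standard errors are the log2 value divided by the root of F and are approximate. Shares were compared by 2-sided exact permutation (SciPy 1.17.1). Counting intervals of low-count ratios are 95% and exact, cover counting error only, and take a floor of 3 counts over a group of 0. RefSeq genes of WBcel235 were assigned by overlap of at least 1 base on either strand. The fit was tested on simulated counts.

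Members named are, per comparison and arm side, the 3 called intervals with the largest and the 3 with the smallest log2 among those with a mean of at least 20 CPM and no overlap of the compared libraries, the 3 members with the most reads per side, up to 3 called intervals of each gene family list, and those nearest the limits. Intervals of 1 length and sequence were to count as 1, which could not be checked without a genome, and none was left out. The lists were chemoreceptor, F-box, MATH and BATH, C-type lectin, nuclear hormone receptor, detoxification, small RNA factor, and structural or short RNA genes. Members and lists were chosen with earlier results of these data known. Loci and interval groups named outside this rule were chosen after their values were seen. Alternatives covered scaling, filters, DESeq2 1.42.0, limma 3.58.1, thinning, a replicate block, the compared libraries alone and each library left out.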

Additional observations from a re-analysis of the deposited data

Results flagged for a closer look

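The log2 IP over input differed between the strains in the edgeR test of that difference for the following members. Enrichment was higher with WAGO-1 P3G than with CSR-1 for 91 intervals on left arms and 82 on right arms, and lower for 11 and 10. Among members of at least 20 CPM on left arms, the log2 difference was 4.78 for str-68 (V:3106927-3107051), 4.4 for the minus-strand interval of the pseudogene srx-69 (V:3924996-3925842) and 4.32 for V:3935082-3935619. In the other direction it was -4.88 for the pseudogene C49G7.14, -3.97 for the noncoding gene H09G03.5 and -1.89 for III:2295114-2295194, in all of which both IPs lay below their inputs. On right arms the difference was 4.41 for Y48C3A.1, whose WAGO-1 P3G inputs held 1 or 2 reads each, 3.79 for the pseudogene Y75B8A.41, 3.71 for V:19270045-19270581 and -2.34 for aakb-2. Protein, tag and genotype differed together between the strains, so their parts in these differences cannot be told apart.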

How the results depend on the processing

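All named intervals together gave 152 pairs of interval and comparison, of which 112 kept direction and side of the threshold in every alternative. Over 3296 alternative values of such pairs, 56 lost the call, 27 gained it and 1 turned: the input difference of II:2157035-2157789 was -0.52 with all reads as library size. Depth limits many members: 97 of the 240 tested reached the count limit in 1 group only. With no filter on low counts the calls became 31 higher for CSR-1 on left and 24 on right arms, 133 higher and 30 lower for WAGO-1 P3G on left and 124 and 27 on right arms, 150 and 18, and 130 and 16, for the difference, and 1 higher for the inputs on right arms. With 20 counts in every library of a group they were 11 higher for CSR-1 on left arms and 5 and 2 lower for WAGO-1 P3G. Thinned to the smallest library, 3 were higher for CSR-1 on left arms, 36 and 28 higher for WAGO-1 P3G, and 5 lower in the difference on left arms. With library totals alone 32 and 23 were higher for WAGO-1 P3G and 9 lower on right arms, as with limma voom (9). With all reads as library size 13 were higher for CSR-1 on left arms, 84 for WAGO-1 P3G on right arms, and 12 and 1 for the inputs. Leaving out each library in turn gave 3 to 7 lower for WAGO-1 P3G on right arms, 1 to 4 higher for the inputs on right arms, 5 to 10 higher for CSR-1 on left arms and 41 to 65 higher for WAGO-1 P3G on right arms. The letters A to C share only a number: same-letter input and IP deviations correlated at 0.287, 0.182 and 0.0353 for CSR-1 and at 0.0181, 0.000276 and -0.00764 for WAGO-1 P3G. With the replicate block the CSR-1 calls were 9 and 8 higher and 81 and 81 lower, and no count moved by over 1.5 times.

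Shares, as log2 ratios on left and right arms with all reads as library size, were -1.0 and -0.89 for CSR-1, 1.64 and 1.55 for WAGO-1 P3G, 2.64 and 2.45 for the difference and -1.04 and -1.93 for the inputs, against -1.82 and -1.71, 0.29 and 0.21, 2.10 and 1.91, and -0.35 and -1.24. Over tested members alone the right-arm share gave 0.37 for WAGO-1 P3G and -1.73 for the inputs. The right-arm input value was -1.09 without the member with the most reads and -0.94 without Y37H2A.16. Arm over centre was 0.12 for CSR-1, -0.38 for WAGO-1 P3G, -0.50 for the difference and -0.40 for the inputs. Without the 5 intervals with the most reads on left arms, on right arms and in centres these were -0.21, 0.0036, 0.22 and -0.016. The first 3 turned direction. The input value was -0.62 over tested members and -0.24 without Y37H2A.16. Right over left arm gave for CSR-1 (0.11) 0.21 over tested members, 0.25 without Y37H2A.16 and -0.15 over members not tested. It gave 0.027 over tested members for WAGO-1 P3G (-0.08), and -0.32 without Y37H2A.16 and 0.012 over members not tested for the difference (-0.19). For the inputs (-0.89) it gave -1.31 over tested members, -0.69 without the member with the most reads, -0.59 without Y37H2A.16 and -0.18 over members not tested. For these changes the cause was not tested. Right over left arm, and the results without Y37H2A.16, were added after seeing the data. The planned checks of copies in the genome and of GC content were not run, since no genome was used here.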

Other observations

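Some members present in every CSR-1 input had no read in any WAGO-1 P3G input. With 3 counts over the group as the floor, II:14313294-14313632 was at least 10.2-fold lower there, and intervals in swsn-1, which codes for a chromatin remodelling subunit, and ttc-7 were at least 3.66-fold and 2.88-fold lower. The reverse was seen too. II:2147635-2147919 in C40A11.2 and III:2615765-2616270 in Y71H2B.5 had no read in any CSR-1 input. Both were called higher in the WAGO-1 P3G inputs, at least 3.40-fold and 2.55-fold, on 8 and 6 reads. These intervals were chosen after their values were seen.

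Equal spans recurred among tested members of the same chromosome. Of the 240 tested members, 36 shared their span with another, among them V:19270045-19270581 and V:19281575-19282111 at 537 bp, both on the minus strand and in no gene, and V:5179696-5180269 and V:5190665-5191238 at 574 bp, both in C03A7.13. Whether they are copies was not tested.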
